A study of Mus musculus with 6 samples.

Results

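The genes described here are 43 genes of the complement and coagulation systems, measured by RNA-seq in 6 libraries of mouse liver. They were taken from the deposited table of gene expression by name, and where a name had several rows the row with the highest mean was used, which mattered for Klkb1 alone. All 43 names were found among the 14499 genes of the table, and all 43 passed the filter on low values (1 FPKM or more in 3 or more of the 6 libraries). FPKM, a measure of sequenced fragments scaled by transcript length and by the mapped fragments of a library, is corrected for gene length, so that levels of different genes can be set side by side.

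There were 3 libraries of livers in which Arid1a was knocked out in hepatocytes (Arid1a_KO_DDC, called knockout) and 3 from wild-type livers (WT_DDC, called wild-type). Both groups were of mixed C57Bl/6; 129Sv background, were 10 weeks old after birth and had received 2 weeks of DDC, a compound that causes bile duct injury. Arid1a encodes a subunit of the BAF chromatin remodelling complex. The labels name neither the driver of the deletion nor a separate mouse for each library, so p-values speak of the spread among libraries. That spread may be technical in part. Replicate 1 of both groups nearly lacked the Y-linked expression of the other libraries, as given further on, so it is not technical alone. No uninjured liver was among the samples. Total RNA of whole liver was sequenced, so fewer cells of a type and less RNA per cell cannot be told apart.

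Complement and coagulation are cascades of plasma proteins, most of them made by hepatocytes and secreted as inactive precursors that cleave each other in turn. Complement is started by C1q bound to antibody, by lectins bound to microbial sugars or by the alternative pathway, and these routes meet at C3 and end in a pore built from C5b, C6, C7, C8 and C9. Coagulation converts prothrombin to thrombin and fibrinogen to fibrin, anticoagulant proteins restrain it, and plasmin dissolves the clot. C1q is an exception in the liver, where its 3 chains come mainly from Kupffer cells and other macrophages, and properdin (Cfp) is likewise a product of leukocytes.

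The members were among the most abundant transcripts of these livers. Their mean over the 6 libraries had a median of 176 FPKM, against 7.91 FPKM over all 11839 genes tested, and 19 of the 43 stood among the 500 genes with the highest mean. The highest was Ahsg, which encodes the plasma glycoprotein fetuin-A, with a mean of 5822 FPKM and rank 22 in the table. The lowest was Masp1, a lectin pathway protease gene, with a mean of 9.52 FPKM and rank 5363. In all, 6 members had means of at least 1000 FPKM, 28 of at least 100 and 42 of at least 10. The lowest value of any member in any library was 5.11 FPKM, for C6 in knockout replicate 1, so that no member was near zero in any library. The plot of levels shows all 258 values.

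**Figure D1:**
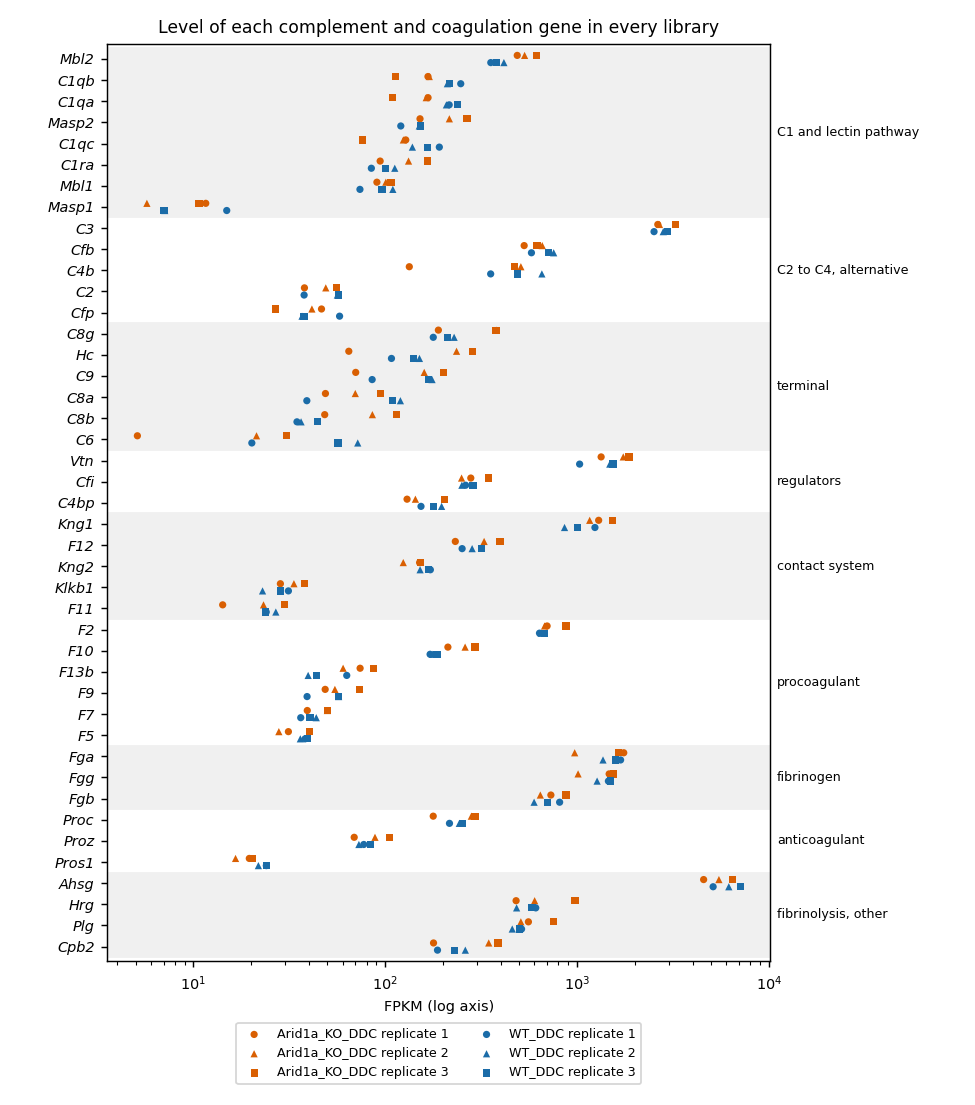
Level in FPKM (x axis, log scale) of each of the 43 genes, grouped by role, in the 3 Arid1a_KO_DDC libraries (orange, upper row of each gene) and the 3 WT_DDC libraries (blue, lower row); circles, triangles and squares are replicates 1, 2 and 3. Levels run from 5.11 FPKM for C6 in knockout replicate 1 to 7082 FPKM for Ahsg in wild-type replicate 3, and the genotypes overlap for most genes.

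No member differed between the genotypes at an adjusted p under 0.05. In limma's test on log2(FPKM + 1), with p adjusted by Benjamini-Hochberg over the 11839 genes, 0 of 43 members were higher and 0 were lower in knockout livers, against 0.135% of all genes called higher, 0.355% called lower and 0.49% called in either direction. The lowest adjusted p of a member was 0.291, for C8b. At an unadjusted p under 0.05 there were 5 higher and 3 lower members, or 18.6% of 43, against 11.1% of all genes. The groups did not overlap for 7 members, or 16.3%, against 16.6% of all genes, so that this share was near the background. These were 3 members with higher values in knockout livers (7.09% of all genes) and 4 with lower values (9.56% of all genes). The fitted difference was over a factor of 1.5 for 7 members, or 16.3%, against 10.4% of all genes. The median log2 difference of the members, knockout minus wild-type, was 0.093, with 24 positive and 19 negative, against 0.0034 over all genes. It was -0.047 without knockout replicate 3, the library in which 27 of the 43 members had their highest value. Of all genes tested, 20.6% had their highest value in that library. The summed FPKM of 9 hepatocyte markers was 43827 to 54025 in knockout and 41362 to 43420 in wild-type libraries, with its highest value also in knockout replicate 3 and with albumin weighing most. By marker, 6 of the 9 had positive and 3 negative differences with a median of 0.095, 0 passed, and Ttr alone had groups that did not overlap. Their part in the members' values was not tested.

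**Figure D2:**
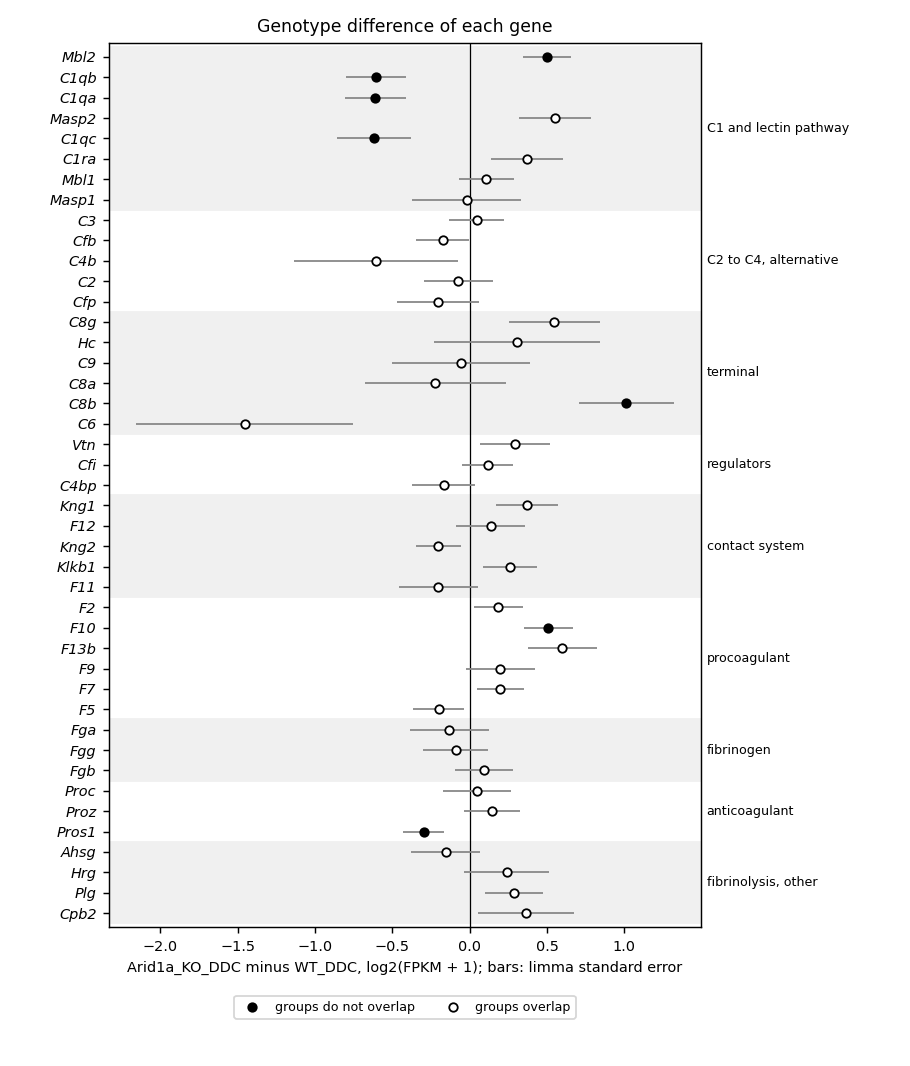
Log2 difference of each gene, knockout minus wild-type, on the log2(FPKM + 1) scale (x axis), with bars of 1 limma standard error; filled points mark the 7 genes whose groups do not overlap. C8b has the highest difference at 1.01 and C6 the lowest at -1.46, and most other genes lie within 0.6 of zero.

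In the sentences on single genes, the 3 values of a group are replicates 1, 2 and 3 in that order, and differences are log2 values of knockout minus wild-type with limma standard errors (SE). Where the groups did not overlap, an exact permutation test (two-sided, 3 libraries against 3) gave p = 0.1, the smallest it allows.

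Sequences upstream of 5 genes are shown because their values stand apart in the results that follow. C8b and C8a are neighbouring partners whose ratio separated the genotypes, Mbl2 and Mbl1 are paralogs whose ratio did so too, and C1qb stands for the C1q chains. Each is the 250 bases before the start of the gene in RefSeq on GRCm38.p6, 5′ to 3′ on the gene's strand. Capitals mark GTTAAT or its reverse complement, a core of the site bound by the hepatocyte factor HNF1, in C8b and C8a, and GAGGAA, a core bound by the myeloid factor PU.1, in C1qb.

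C8b promoter, chr4:104766067-104766316, plus strand: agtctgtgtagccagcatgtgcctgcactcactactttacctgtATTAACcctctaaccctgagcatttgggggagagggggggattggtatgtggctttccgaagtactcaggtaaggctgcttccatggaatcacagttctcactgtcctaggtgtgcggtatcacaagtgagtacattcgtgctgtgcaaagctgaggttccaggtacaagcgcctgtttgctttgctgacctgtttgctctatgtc

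C8a promoter, chr4:104876399-104876648, minus strand: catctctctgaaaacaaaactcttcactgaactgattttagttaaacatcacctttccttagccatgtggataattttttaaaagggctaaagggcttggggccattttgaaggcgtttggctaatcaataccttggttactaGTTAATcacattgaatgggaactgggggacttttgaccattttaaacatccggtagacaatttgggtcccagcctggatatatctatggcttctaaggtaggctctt

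Mbl2 promoter, chr19:30232678-30232927, plus strand: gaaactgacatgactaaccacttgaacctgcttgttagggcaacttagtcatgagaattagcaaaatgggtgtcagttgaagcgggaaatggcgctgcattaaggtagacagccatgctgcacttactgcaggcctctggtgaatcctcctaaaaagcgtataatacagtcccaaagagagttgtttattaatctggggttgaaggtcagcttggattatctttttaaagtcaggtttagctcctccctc

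Mbl1 promoter, chr14:41151206-41151455, plus strand: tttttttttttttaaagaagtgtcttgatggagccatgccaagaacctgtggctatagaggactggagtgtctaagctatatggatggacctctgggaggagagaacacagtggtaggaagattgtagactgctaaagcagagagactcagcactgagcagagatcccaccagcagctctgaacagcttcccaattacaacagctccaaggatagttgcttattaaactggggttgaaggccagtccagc

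C1qb promoter, chr4:136886201-136886450, minus strand: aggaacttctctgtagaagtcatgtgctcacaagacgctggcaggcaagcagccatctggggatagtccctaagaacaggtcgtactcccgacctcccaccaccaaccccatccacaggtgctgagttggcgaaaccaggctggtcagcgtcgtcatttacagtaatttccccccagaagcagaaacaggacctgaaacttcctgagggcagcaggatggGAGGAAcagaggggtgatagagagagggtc

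The letters GTTAAT, searched on both strands, began 206 bases before the start of C8b and 107 before that of C8a, and GAGGAA began 30 bases before that of C1qb. Neither was found in the windows of Mbl2 and Mbl1. For Mbl2 and C1qb, the bases just after the RefSeq start were not found in GENCODE M21 transcripts. The distance given for C1qb therefore depends on the annotation used. Over the 32851 windows of the promoter table, 6.43% held GTTAAT and 23.3% held GAGGAA. Among 35 windows of the 34 members in that table, 11 held GTTAAT and 4 held GAGGAA. The C/EBP motif TTGCNNAA was in 10 of the 35 and in 9.56% of all windows, CAAAGTCCA, a site of HNF4, was in 0 of 35 and 0.384%, and TATAAA was in 3 of 35 and 12.4%. These are matches of letters and do not show binding.

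The 3 chains of C1q, the molecule that starts the classical pathway, were lower in every knockout library than in every wild-type library. C1qa (ENSMUSG00000036887) had 167, 164 and 109 FPKM in knockout livers and 216, 209 and 239 FPKM in wild-type livers. C1qb (ENSMUSG00000036905) had 167, 170 and 113.002 FPKM in knockout and 248, 211 and 217 FPKM in wild-type livers. C1qc (ENSMUSG00000036896) had 128, 124 and 75.9 FPKM in knockout and 192, 139 and 166 FPKM in wild-type livers. Knockout replicate 3 was the lowest library for all 3 chains, and the 2 groups did not overlap for any of them. Group means for C1qa were 147 ± 32.6 FPKM in knockout and 221 ± 15.7 FPKM in wild-type livers (SD, n = 3 libraries each). The log2 differences were -0.61 (SE 0.20) for C1qa, -0.60 (SE 0.19) for C1qb and -0.62 (SE 0.24) for C1qc, and none passed over all genes (limma adjusted p = 0.314, 0.314 and 0.416). Without knockout replicate 3 they were -0.41, -0.41 and -0.38.

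The chains lie side by side on the minus strand of chromosome 4, within 18.675 kb (136880129 to 136898803 on GRCm38), and they kept nearly the same proportions in every library. The ratio of C1qa to C1qb was 1.001, 0.964 and 0.966 in knockout and 0.870, 0.988 and 1.10 in wild-type livers. That of C1qc to C1qb was 0.766, 0.732 and 0.672 in knockout and 0.773, 0.657 and 0.763 in wild-type livers, so that both ratios overlapped between the genotypes.

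Most macrophage markers had lower values in knockout livers alongside C1q. Of 12 tested markers of Kupffer cells and macrophages, 11 had negative and 1 had a positive difference. Their median was -0.41, and 0 of them passed. Groups did not overlap, with lower values in knockout livers, for Csf1r, Marco, Cd163 and Lyz2. These were 33.3% of the 12, against 9.56% of all genes. Differences were small for Cd68 (-0.10) and Cd14 (-0.14) and positive for Cd5l (0.16). The summed FPKM of 13 markers was 636, 499 and 417 in knockout and 837, 609 and 628 in wild-type livers, and that of the C1q chains was 463, 458 and 298 in knockout and 655, 558 and 622 in wild-type livers. The C1q sum divided by the marker sum was 0.727, 0.918 and 0.714 in knockout and 0.782, 0.916 and 0.990 in wild-type livers. This ratio, chosen after the values were seen, overlapped between the genotypes. Lyz2, Clec4f and Cd5l weigh most in the marker sum, and Cd5l was highest in replicate 1 of each genotype. The Kupffer cell lectin Clec4f had 100, 124 and 94.0 FPKM in knockout and 131, 120 and 113.3 FPKM in wild-type livers, which overlapped. Most markers of other non-hepatocyte cells leaned the same way, while all 3 erythroid markers had positive differences (median 0.59, 2 of them without overlap). All 7 tested sinusoidal endothelial markers had negative differences (median -0.48), as did 6 of 7 stellate cell and fibroblast markers (median -0.56). So did 5 of 6 biliary markers (median -0.64, with Cldn4 called lower) and 3 of 3 neutrophil markers (median -0.80). All 4 T and NK cell markers were negative (median -0.38), and so were all 4 B and plasma cell markers (median -1.92). The B and plasma cell markers all overlapped between the genotypes. Igkc had 17.6, 7538 and 22.5 FPKM in knockout and 1478 to 5412 FPKM in wild-type livers, and Jchain was likewise highest in knockout replicate 2. The part of macrophages and of these other cells in the C1q values was not tested.

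Properdin, the leukocyte product that stabilizes the alternative pathway convertase, had 46.6, 41.5 and 26.9 FPKM in knockout and 57.9, 36.9 and 37.7 FPKM in wild-type livers. Its groups overlapped, unlike those of C1q. The ratio of Cfp to C1qb was 0.279, 0.244 and 0.238 in knockout and 0.234, 0.175 and 0.173 in wild-type livers, higher in every knockout library.

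The mannose-binding lectins recognise sugars on microbes and are made by hepatocytes. Mbl2, encoding mannose-binding lectin C, had 488, 533 and 617 FPKM in knockout and 355, 416 and 382 FPKM in wild-type livers, with no overlap. The means were 546 ± 65.5 FPKM in knockout and 384 ± 30.3 FPKM in wild-type livers (SD, n = 3 each), a log2 difference of 0.50 (SE 0.15, limma adjusted p = 0.296). Mbl1, encoding the paralogous mannose-binding lectin A, had 90.6, 101 and 107 FPKM in knockout and 73.9, 110 and 96.2 FPKM in wild-type livers, which overlapped (0.11). The Mbl2 to Mbl1 ratio was therefore 5.39, 5.29 and 5.75 in knockout and 4.81, 3.79 and 3.97 in wild-type livers, and the genotypes did not overlap.

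The proteases of these routes overlapped between the genotypes. Masp2, which cleaves C4 and C2 in the lectin pathway, had 152, 216 and 267 FPKM in knockout and 121, 151 and 152 FPKM in wild-type livers, and the groups overlapped at 152 FPKM (0.55, SE 0.23, limma adjusted p = 0.444). C1ra, the protease of C1 that is activated first, had 94.2 to 166 FPKM in knockout and 84.7 to 112 FPKM in wild-type livers (0.37). Masp1 had 5.73 to 11.6 FPKM in knockout and 7.03 to 14.9 FPKM in wild-type livers (-0.020).

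C3, on which all routes meet, was among the most abundant members and had like values in both genotypes. It had 2637, 2690 and 3273 FPKM in knockout and 2521, 2816 and 2976 FPKM in wild-type livers (0.046, SE 0.18). Cfb, the protease precursor of the alternative pathway, had 530, 659 and 619 FPKM in knockout and 579, 756 and 710 FPKM in wild-type livers (-0.17). C2, its counterpart in the classical and lectin pathways, had 38.0, 49.0 and 55.9 FPKM in knockout and 37.8, 56.3 and 57.0 FPKM in wild-type livers (-0.072). All 3 genes overlapped between the genotypes.

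C4b, encoding the C4 that C1s and MASP-2 cleave, varied far more than C3. It had 134, 510 and 471 FPKM in knockout and 355, 656 and 487 FPKM in wild-type livers, and knockout replicate 1 was well below the other 5 libraries. The log2 difference of -0.61 (SE 0.53, limma adjusted p = 0.719) was 0.017 without that library. Over the 6 libraries the highest C4b to C3 ratio was 4.60 times the lowest, whereas for Cfi to C3 it was 1.19 times. C4b has a near-identical neighbour, C4a, at 30.8, 104.3 and 173 FPKM in knockout and 91.4, 277 and 112 FPKM in wild-type livers. How reads shared by the pair were divided is uncertain, and so are both values.

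The terminal components, which build the membrane pore, held both the highest and the lowest difference of all members. C8b, encoding the beta chain of C8, had 48.4, 85.8 and 115 FPKM in knockout and 34.7, 36.5 and 44.2 FPKM in wild-type livers. Every knockout library was above every wild-type library. The means were 83.0 ± 33.2 FPKM in knockout and 38.5 ± 5.08 FPKM in wild-type livers (SD, n = 3 each), a ratio of 2.16. On the log2 scale the groups differed by 1.01 (SE 0.31, limma adjusted p = 0.291), or by 0.74 without knockout replicate 3 and by 1.35 without knockout replicate 1.

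C8a, encoding the alpha chain, had overlapping groups, and its gene is the neighbour of C8b on chromosome 4 (104766317 to 104876398 on GRCm38, on opposite strands, within 110.082 kb). C8a had 48.8, 69.9 and 94.2 FPKM in knockout and 39.1, 120 and 109 FPKM in wild-type livers (-0.22, SE 0.46). The alpha and beta chains are needed in equal number in each C8 molecule. The ratio of C8a to C8b was 1.01, 0.815 and 0.821 in knockout and 1.13, 3.29 and 2.47 in wild-type livers, lower in every knockout library, with knockout replicate 1 close to wild-type replicate 1. Its mean was 0.882 ± 0.110 in knockout and 2.30 ± 1.09 in wild-type livers (SD, n = 3 each), and the mean log2 ratio differed by -1.25 (exact permutation p = 0.1, adjusted over the 16 ratios 0.267).

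C8g, encoding the gamma chain, a lipocalin bound to the alpha chain, had 189, 379 and 378 FPKM in knockout and 178, 229 and 212 FPKM in wild-type livers. Replicate 1 of knockout lay within the wild-type range, so the groups overlapped (0.55, SE 0.29, limma adjusted p = 0.549). Per C8b transcript, C8g was 3.91, 4.42 and 3.30 in knockout and 5.13, 6.28 and 4.79 in wild-type livers, lower in every knockout library.

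C6, which joins C5b to begin the pore, had 5.11, 21.4 and 30.7 FPKM in knockout and 20.2, 72.0 and 56.8 FPKM in wild-type livers. The means were 19.1 ± 13 FPKM in knockout and 49.7 ± 26.6 FPKM in wild-type livers (SD, n = 3 each). Replicate 1 was by far the lowest library of each genotype, and wild-type replicate 1 lay below knockout replicates 2 and 3, so the groups overlapped. The log2 difference of -1.46 (SE 0.70, limma adjusted p = 0.5) was -0.75 without knockout replicate 1 and -1.99 without wild-type replicate 1. Within each replicate number C6 was lower in the knockout library. With a term for the library numbers described further on, the difference stayed at -1.46 with an adjusted p of 0.0514, and in replicates 2 and 3 alone it was -1.29 with an adjusted p of 0.096 (limma).

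Hc, the mouse gene of C5, had 64.6, 236 and 285 FPKM in knockout and 108, 151 and 141 FPKM in wild-type livers. Knockout was below wild-type in replicate 1, with a log2 difference of -0.73, and above it in replicates 2 and 3, with 0.82. The test of this unlike difference gave the lowest unadjusted p among the members (0.00213, limma adjusted p = 0.394), and the difference over all libraries was 0.31 (SE 0.54), or -0.094 without knockout replicate 3. C9, which polymerises to form the pore, had 70.2, 160 and 201 FPKM in knockout and 85.5, 176 and 168 FPKM in wild-type livers. The genotypes overlapped for C9 (-0.055) and replicate 1 was lowest in both.

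**Figure D3:**
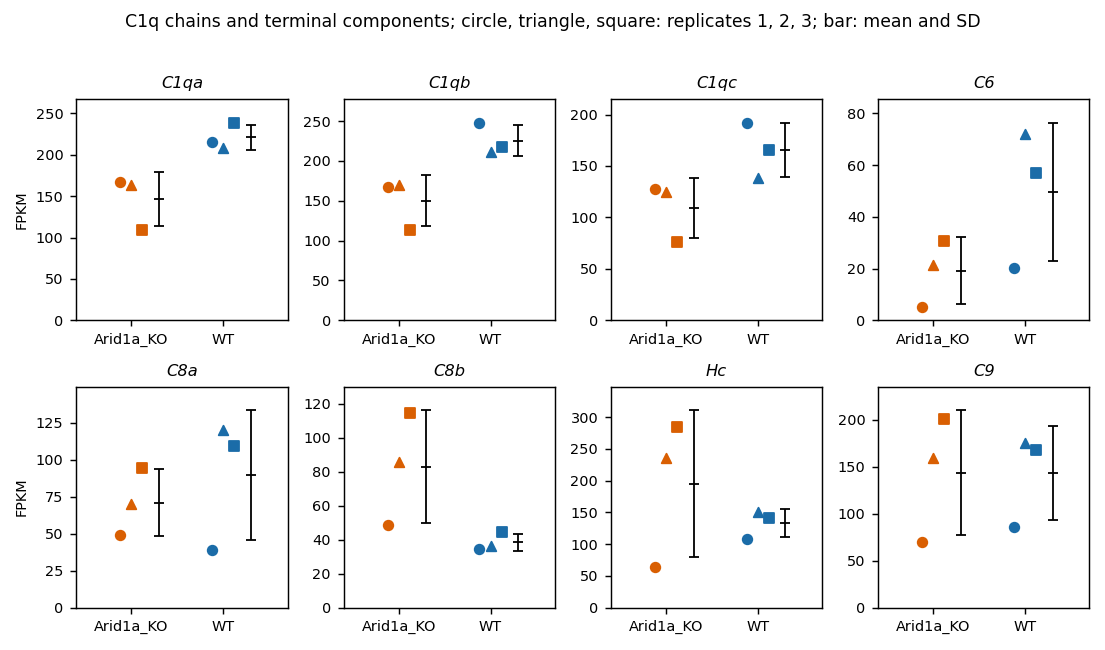
FPKM (y axes, from 0) of the 3 C1q chains and of 5 terminal components in the 3 Arid1a_KO_DDC libraries (left, orange) and the 3 WT_DDC libraries (right, blue); circles, triangles and squares are replicates 1, 2 and 3, and the bars beside them give the mean and SD. The C1q chains are lower in all knockout libraries and C8b is higher in all of them. In C6, C8a, C8b, Hc and C9 replicate 1 (circles) is the lowest of its genotype.

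The complement regulators overlapped between the genotypes. Vtn encodes vitronectin, which blocks insertion of the pore, and had 1336, 1743 and 1868 FPKM in knockout and 1032, 1482 and 1540 FPKM in wild-type livers (0.29). Cfi, the protease that inactivates C3b and C4b, had 280, 250 and 344 FPKM in knockout and 263, 251 and 287 FPKM in wild-type livers (0.12). C4bp, which binds C4b, had 130 to 204 FPKM in knockout and 154 to 197 FPKM in wild-type livers (-0.17).

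Of the 5 contact system genes, which begin the intrinsic pathway and release bradykinin, none had groups that did not overlap. Kng1, encoding the kininogen that carries bradykinin, had 1297, 1165 and 1536 FPKM in knockout and 1240, 861 and 1008 FPKM in wild-type livers (0.37, SE 0.20, limma adjusted p = 0.555). Kng2, its paralog and neighbour on chromosome 16, had 151, 124 and 153 FPKM in knockout and 172, 152 and 168 FPKM in wild-type livers (-0.20). The paralogs thus leaned opposite ways. The Kng2 to Kng1 ratio was 0.117, 0.107 and 0.0997 in knockout and 0.139, 0.177 and 0.166 in wild-type livers, without overlap, and reads shared by paralogs make it uncertain. F12, the Hageman factor, had 232, 328 and 397 FPKM in knockout and 252, 284 and 318 FPKM in wild-type livers (0.14). Klkb1, plasma prekallikrein, had 28.4 to 37.8 FPKM in knockout and 23.0 to 31.3 FPKM in wild-type livers, and F11, which activates factor IX, had 14.2 to 29.7 FPKM in knockout and 23.8 to 26.9 FPKM in wild-type livers.

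Among the 6 procoagulant factors, 5 had positive differences. F10, the protease that converts prothrombin to thrombin, had 212, 261 and 294 FPKM in knockout and 172, 177 and 186 FPKM in wild-type livers. All knockout libraries were above all wild-type libraries. The means were 256 ± 41.1 FPKM in knockout and 178 ± 7.51 FPKM in wild-type livers (SD, n = 3 each), a log2 difference of 0.51 (SE 0.16, limma adjusted p = 0.305). F7, which with tissue factor activates F10 and lies beside it on chromosome 8, had 39.3, 50 and 50 FPKM in knockout and 36.3, 43.7 and 40.5 FPKM in wild-type livers, with overlap (0.20). The F7 to F10 ratio was 0.185, 0.191 and 0.170 in knockout and 0.212, 0.248 and 0.218 in wild-type livers, lower in every knockout library.

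F13b, encoding the carrier chain of the fibrin-crosslinking factor XIII, had 74, 60.4 and 87.3 FPKM in knockout and 63.1, 39.7 and 43.9 FPKM in wild-type livers. Knockout replicate 2 was just below wild-type replicate 1 (0.60, SE 0.22, limma adjusted p = 0.386). F2, prothrombin, had 699, 678 and 875 FPKM in knockout and 638, 650 and 679 FPKM in wild-type livers, and the groups touched at their edges (0.19). F9, whose loss causes haemophilia B, had 48.7 to 73.3 FPKM in knockout and 39.2 to 57.2 FPKM in wild-type livers, and F5, the cofactor of F10, had 27.9 to 40.5 FPKM in knockout and 36.1 to 39.3 FPKM in wild-type livers. The 6 factors summed to 1104, 1132 and 1421 FPKM in knockout and 986, 1004 and 1046 FPKM in wild-type livers. These sums did not overlap, and F2 weighs most in them. They hold F10, whose own groups did not overlap, so they are not separate from its difference. The sums of all other role groups overlapped between the genotypes, while the hepatocyte marker sums given above did not.

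The fibrinogen chains, whose product forms the clot, overlapped between the genotypes. Fga had 1752, 973 and 1641 FPKM in knockout and 1687, 1366 and 1593 FPKM in wild-type livers (-0.13). Fgg had 1471, 1013 and 1548 FPKM in knockout and 1458, 1273 and 1500 FPKM in wild-type livers (-0.090), and Fgb had 644 to 876 FPKM in knockout and 598 to 812 FPKM in wild-type livers (0.093). Replicate 2 was the lowest library of each genotype for all 3 chains, which lie within 42.14 kb on chromosome 3. The Fga to Fgb ratio ran from 1.51 to 2.40 in knockout and from 2.08 to 2.29 in wild-type livers.

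Of the 3 anticoagulant genes, Pros1 alone had groups that did not overlap. Pros1 encodes protein S, the cofactor of activated protein C, and had 19.6, 16.6 and 20.3 FPKM in knockout and 24, 21.8 and 24.1 FPKM in wild-type livers (-0.30, SE 0.13, limma adjusted p = 0.481). Proc, protein C itself, had 178, 281 and 294 FPKM in knockout and 216, 244 and 252 FPKM in wild-type livers (0.049). Proz, protein Z, the cofactor of an inhibitor of F10, had 69.0, 88.5 and 105.4 FPKM in knockout and 77.4, 73.0 and 84.0 FPKM in wild-type livers (0.15). Both overlapped. The ratio of Proc to Pros1 was 9.09, 16.9 and 14.5 in knockout and 9.01, 11.2 and 10.5 in wild-type livers, with overlap through replicate 1 of the knockout.

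Genes of fibrinolysis and other plasma proteins overlapped as well. Plg, the precursor of plasmin, had 510 to 756 FPKM in knockout and 460 to 514 FPKM in wild-type livers (0.29). Cpb2, which protects fibrin from plasmin, had 179 to 388 FPKM in knockout and 187 to 262 FPKM in wild-type livers (0.36). Hrg, the histidine-rich glycoprotein, had 481, 601 and 977 FPKM in knockout and 610, 484 and 582 FPKM in wild-type livers, where knockout replicate 3 stood above the other 5 libraries (0.24, or -0.047 without it). Ahsg had 4571, 5492 and 6482 FPKM in knockout and 5123, 6184 and 7082 FPKM in wild-type livers (-0.15).

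Ratios of partner or paralog genes within a library do not depend on how that library was scaled. Of 16 such ratios computed, 6 had groups that did not overlap, and each gave an exact permutation p of 0.1 (0.267 adjusted over the 16). In knockout livers the ratios of C8a to C8b, C8g to C8b, Kng2 to Kng1 and F7 to F10 were lower, and those of Mbl2 to Mbl1 and Cfp to C1qb were higher. The differences of the mean log2 ratio were -1.25, -0.48, -0.57 and -0.31 for the lower ratios, and 0.39 and 0.40 for the higher. Each of these ratios except Kng2 to Kng1 holds a gene whose own groups did not overlap (C8b, F10, Mbl2 or C1qb). Such a ratio is not separate from the difference of that gene. Among single genes 16.6% had groups without overlap, and no share over other gene pairs was computed.

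**Figure D4:**
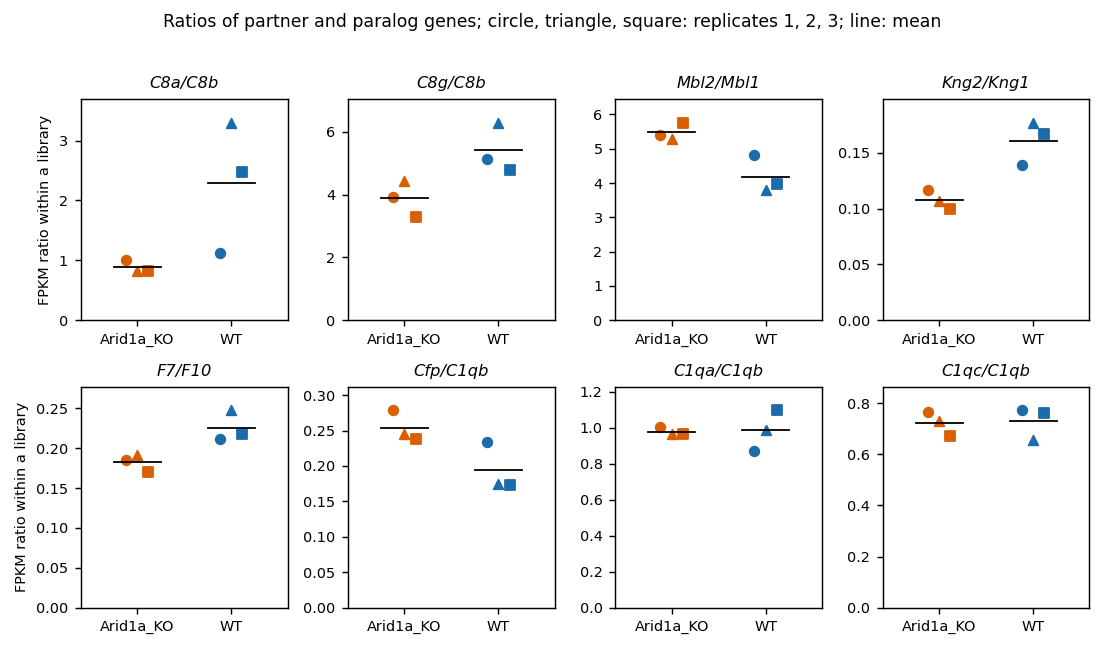
Ratios of FPKM within a library (y axes, from 0) for 8 gene pairs in the 3 Arid1a_KO_DDC libraries (left, orange) and the 3 WT_DDC libraries (right, blue); circles, triangles and squares are replicates 1, 2 and 3, and lines are means. The genotypes do not overlap in 6 pairs, among them C8a/C8b with means of 0.882 in knockout and 2.30 in wild-type livers, and they overlap for both pairs of C1q chains.

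A further pattern followed the library identifiers. Replicate 1 of both genotypes carries the identifiers L0566 and L0567, and replicates 2 and 3 carry L0602 to L0605; the labels do not say what this split means. The Y-linked transcript Ddx3y was 0.0227 FPKM in knockout replicate 1 and 0.0527 FPKM in wild-type replicate 1, against 9.27 to 11.3 FPKM in the other 4 libraries, so that the split coincides with Y-linked expression and the 2 cannot be told apart. In an additive limma fit with the genotype, 0 members passed for this contrast (lowest adjusted p = 0.0569, for C6), against 0.127% of all genes. At an unadjusted p under 0.05, however, 18 members were lower and 2 were higher in L0566 and L0567, against 13.1% and 8.23% of all genes. For 18 members, or 41.9% of 43, both of these libraries lay below all other 4, against 17.2% of all genes. The median difference of the members was -0.25, against -0.044 over all genes, and 31 of 43 were negative, against 55.1% of all genes.

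The terminal components carried the pattern furthest. All 6 had an unadjusted p under 0.05 in this contrast, and for 5 of them, all but C8b, L0566 and L0567 lay below the other 4 libraries. The log2 differences, L0566 and L0567 minus the others, were -1.87 for C6 (SE 0.21), -1.21 for Hc, -1.17 for C9, -1.12 for C8a, -0.65 for C8g and -0.61 for C8b (limma adjusted p = 0.0569, 0.151, 0.0649, 0.105, 0.143 and 0.219). C4b was at -1.27 and C2 at -0.51 (adjusted p = 0.118 and 0.115), Cpb2 at -0.71 and Vtn at -0.49. The 6 terminal genes summed to 427 FPKM in L0567 and 466 FPKM in L0566, against 732 to 1103 FPKM in the others. Masp1, Cfp and Fga ran the other way, with both libraries above all other 4 (0.74, 0.54 and 0.33).

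Whether the genotype difference was unlike between the library sets was tested with an interaction term. It passed for 0 of 43 members and for 0% of all genes, and an unadjusted p under 0.05 was found for 4 members, Hc, C4b, C8g and Cpb2, or 9.30%, against 9.05% of all genes. In this fit each genotype has 1 library in the smaller set. For the 7 members without overlap the sign within each set is fixed by that lack of overlap, and the sizes are given as a description. Differences in replicate 1, where 1 knockout library is set against 1 wild-type library, and in replicates 2 and 3 were 0.47 and 1.28 for C8b, 0.46 and 0.52 for Mbl2, and 0.31 and 0.61 for F10. For the lower genes they were -0.36 and -0.73 for C1qa, -0.56 and -0.62 for C1qb, -0.58 and -0.64 for C1qc, and -0.28 and -0.31 for Pros1. C6, whose groups overlapped when pooled, was at -1.79 in replicate 1 and -1.29 in replicates 2 and 3.

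**Figure D5:**
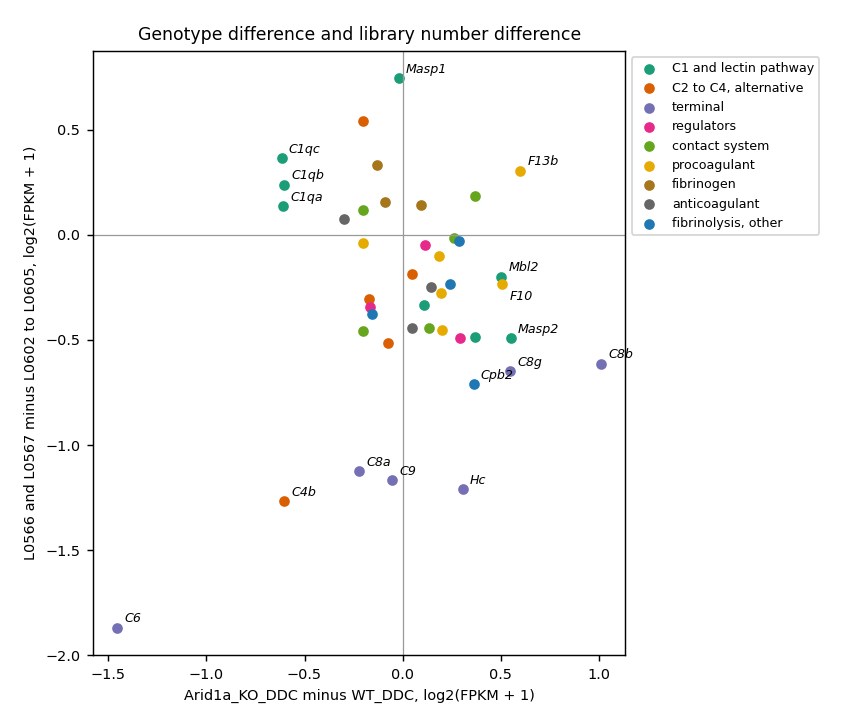
Log2 difference of each of the 43 genes between genotypes (x axis, knockout minus wild-type) and between library sets (y axis, L0566 and L0567 minus L0602 to L0605), both on the log2(FPKM + 1) scale, coloured by role. The 6 terminal components all lie below zero on the y axis, from -0.61 for C8b to -1.87 for C6, while on the x axis they spread from -1.46 to 1.01.

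Of the 43 members, 20 lie in 7 clusters of neighbours within 200 kb on GRCm38. The C1q chains had differences of one sign, and so did F7, F10 and Proz on chromosome 8 (13026034 to 13076026), in all 6 fits that left out 1 library. Kng1 and Kng2, in the cluster with Ahsg and Hrg on chromosome 16 (22891277 to 23082078), had opposite signs in all of these fits. For the C1q chains and F10 the sign is fixed by their lack of overlap. Proz was at 0.0030 without knockout replicate 3 and at -0.16 in replicate 1, so its like sign with F7 and F10 cannot be read. Elsewhere the sign of at least 1 neighbour turned with the library left out, so that no like or unlike sign can be read for C8a beside C8b, for C4b and C2 beside Cfb on chromosome 17 (34728380 to 34898265) or for the fibrinogen chains on chromosome 3 (83007724 to 83049863). The same holds for F11 beside Klkb1 on chromosome 8 (45241174 to 45294859), since the difference of F11 was 0.078 without knockout replicate 1, and Fgb was at -0.024 without knockout replicate 3.

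Of 71 further complement, coagulation and fibrinolysis genes listed, 59 were in the table and 51 were tested, and 0 were higher and 0 lower at an adjusted p under 0.05. At an unadjusted p under 0.05, 3 were higher and 6 lower, or 17.6% of 51, against 11.1% of all genes. The groups did not overlap for 10 of the 51, or 19.6%, against 16.6% of all genes, so that this share was near the background. The 21 complement genes among them had a median difference of -0.23 with 16 negative, and the 30 coagulation genes a median of 0.04. The 8 with the smallest p are described next, and the lowest adjusted p among them was 0.243.

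F2r, the thrombin receptor PAR1, had 7.82, 3.53 and 2.33 FPKM in knockout and 11.7, 9.60 and 14.1 FPKM in wild-type livers (-1.31, SE 0.36, limma adjusted p = 0.243). Plaur, the urokinase receptor, had 6.23, 3.97 and 2.28 FPKM in knockout and 8.79, 8.01 and 7.03 FPKM in wild-type livers (-0.86). Fgl2, a fibrinogen-like protein with prothrombinase activity in macrophages, had 1.83, 1.86 and 1.06 FPKM in knockout and 6.15, 3.36 and 2.52 FPKM in wild-type livers (-0.91). These genes, known from endothelial, stromal or myeloid cells, were lower in all knockout libraries. So was Itgax, a chain of complement receptor 4, with 3.77, 3.05 and 1.85 FPKM in knockout and 7.04, 3.97 and 5.29 FPKM in wild-type livers (-0.73). Vsig4, the complement receptor of Kupffer cells, overlapped, with 38.9, 32.9 and 22.7 FPKM in knockout and 74, 35.9 and 52.4 FPKM in wild-type livers (-0.73).

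Higher in all knockout libraries was Vkorc1, the vitamin K reductase needed to mature F2, F7, F9, F10, Proc, Pros1 and Proz. It had 234, 347 and 330 FPKM in knockout and 171, 199 and 213 FPKM in wild-type livers (0.63, limma adjusted p = 0.297). Serpind1, heparin cofactor II, a thrombin inhibitor made by hepatocytes, had 315, 300 and 358 FPKM in knockout and 259, 241 and 268 FPKM in wild-type livers (0.34). C1qbp, a mostly mitochondrial protein that can bind C1q, had 87.6, 117 and 104.4 FPKM in knockout and 77.9, 80.0 and 70.9 FPKM in wild-type livers (0.42). For these 3 genes the genotypes did not overlap, and none passed over all genes.

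Arid1a itself had 6.61, 5.01 and 3.81 FPKM in knockout and 7.85, 5.48 and 5.98 FPKM in wild-type livers, with overlap. Its gene-level FPKM counts undeleted exons and the other cells of the liver too, and therefore is no check of the labels. Per library, 11280 to 11712 genes reached 1 FPKM. FPKM carry no fragment numbers, so the depth behind each value is unknown and no counting intervals are given. Of other cell types that a liver sample can hold, neutrophil markers summed to 14.0 to 27.6 FPKM in knockout and 33.4 to 59.6 FPKM in wild-type libraries, and the platelet markers Pf4 and Itga2b to 3.63 to 12.3 FPKM in knockout and 8.84 to 11.6 FPKM in wild-type libraries.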

How the data were processed

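The deposited data, from the authors, are 1 table with the log2 FPKM of each gene in each library. The submitters' processing notes name TopHat2 2.0.6, Cufflinks and the builds mm10 and GRCm38; no annotation is given in the sources used here. In the deposited log2 values, -10 stands for 0 FPKM plus an offset of 0.000977. With this offset removed, 100% of 60069 values were numbers of 6 significant digits (relative tolerance 3e-08), and 0% before. Count models were not used, since FPKM are no counts.

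Genes reaching 1 FPKM in 3 or more of 6 libraries were tested on log2(FPKM + 1) with limma 3.58.1 in R 4.3.3 (two-sided, eBayes with trend) and adjusted by Benjamini-Hochberg over these 11839 genes. For low genes this scale makes a change look smaller. Adjusted p-values of single genes are from this fit. The additive fit with library numbers has 3 residual degrees of freedom and the interaction 2. In simulated data for the genotype comparison (11629 genes tested), 54 of 100 genes changed by 1 log2 unit and 92 of 100 changed by 2 were recovered, with 7 unchanged genes among 153 called.

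Members and gene lists were chosen with earlier results of these data known. Values in every library are given for the 12 members with the smallest p, the 2 highest of each role, the 6 with the smallest p by library number and both genes of ratios without overlap. The ratio of F13b to F13a1 was planned and F13a1 is not analysed here. Shares of the table total are not given, because mt-Atp8 alone took 10.7% to 49.5% of it. Positions are from GENCODE M21 (14453 of 14499 identifiers found) and promoters from RefSeq; 9 members had no promoter entry. Alternatives were other pseudocounts (0.1 and 5), filters, scalings, variance moderation, library terms and subsets, and leaving out each library. The library number contrast without either replicate 1 was added after seeing the data.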

Additional observations from a re-analysis of the deposited data

How the results depend on the processing

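In the genotype comparison, 0 members were called higher and 0 lower in all 18 settings. Of other pathway genes, 0 were called, except Anxa2, 1 gene lower in the libraries L0602 to L0605 alone. Counts over all genes, 16 higher and 42 lower, moved more. Higher genes were 10 with no filter, 33 with a library number term and 26 in L0602 to L0605 alone; leaving out 1 library gave 0 to 30 higher and 0 to 40 lower. The replicate block gave 0 higher and 0 lower (776 and 942 at an unadjusted p under 0.05) and changed no member's call. Same-numbered libraries deviated together with correlations of 0.346, 0.133 and 0.0212, so the numbers were not taken as pairs; replicate 1 of both groups also shares its run of identifiers, and not every library correlated best with its own number. Numbers of L0566 and L0567 against the rest were 5 higher and 10 lower. Higher genes were 8 with no filter, 3 with a filter at 5 FPKM, 9 with quantile normalization and 8 with robust estimation, and lower genes were 19 with a pseudocount of 0.1 and 22 with robust estimation. Leaving out 1 library gave 0 to 3 higher and 3 to 8 lower. Robust estimation called 1 member lower, C6.

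Of 561 values of 33 named members, 27 of 14 genes turned sign, and over all 43 members 17 did, with F11 (-0.43 to 0.078), Fgb (-0.043 to 0.22) and Masp1 (-0.19 to 0.31) besides. Leaving out 1 library at a time, the 14 ran from -0.26 to 0.079 for C2, -0.053 to 0.10 for C3, -0.95 to 0.017 for C4b, -0.73 to 0.066 for C8a, -0.39 to 0.39 for C9, -0.094 to 0.97 for Hc and -0.011 to 0.22 for Cfi. They ran from -0.36 to 0.025 for Cfp, -0.048 to 0.23 for Mbl1, -0.038 to 0.35 for F12, -0.29 to 0.14 for Fga, -0.20 to 0.10 for Fgg, -0.082 to 0.28 for Proc and -0.047 to 0.46 for Hrg. Quantile normalization gave C3 -0.16, Cfi -0.0056 and Proc -0.076, and L0602 to L0605 alone gave C9 0.059. The cause was not tested. The members' median ran from -0.047 to 0.17. Ratios without overlap numbered 6 to 9. Leaving out a library can only keep or raise this number. The replicate block counted differences of like sign within replicate numbers, which every ratio without overlap has. In those settings the number could not fall below 6, so they are no check of these ratios. With 3 libraries a group and unknown depth, differences of 1 log2 unit or less were often not detectable.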
